A study of Caenorhabditis elegans with 154 samples.

Results

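The least crowded arrested larvae of the series were 27 single L1s, 14 of the *fog-2* strain and 13 of N2, beside 127 animals at the 3 higher densities. They were chosen by their labelled density of 1 egg/μL, with no use of any measured value. L1 arrest is the state that *C. elegans* larvae enter when they hatch without food, in which postembryonic development stops until feeding begins and the animal lives on what its embryo left it. Such larvae have their full set of embryonic tissues (muscle, gut, neurons, skin and a pharynx) and only the founding cells of a gonad. Single-animal libraries make the spread between sister larvae of one culture measurable, which a pool of worms hides.

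N2 is the standard wild-type strain, and its XX animals are self-fertile hermaphrodites. The other strain, CB4108, carries *fog-2* (q71), in which XX animals make no sperm and are kept by mating with males, so its broods hold both sexes. In both strains embryos from bleached, well-fed adults were placed without food in M9 buffer with polyethylene glycol, at a density of 1 egg/μL or, for the rest of the series, of 5, 20 and 100, and single L1s were lysed after 22 hr for Smart-Seq2 RNA-Seq, a full-length cDNA method. Values are tpm, a level per transcript length scaled to the same total in every animal, and the tables of the 2 strains were deposited separately, so strain levels are set side by side here without a test. Animals of one density and strain may have shared a culture tube, so that p-values measure the spread between animals and not between cultures.

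A gene counted as detected in an animal at 1 tpm or more, and tpm keeps no record of read depth, so the number of detected genes was used as a gauge of it in each animal. That number ran from 7637 to 12598 (median 11568) over the *fog-2* animals and from 7725 to 11160 (median 9829) over N2. The names of the animals carry a digit from 1 to 3 whose meaning the labels do not give, and the 3 *fog-2* animals of digit 1 had the fewest detected genes of their strain (7637 to 8517). One N2 animal, that of 7725 detected genes, stood apart. Its median correlation with the other 12 over genes was 0.550, below the 0.605 to 0.727 of each of the others. Its deviations from the strain median of each gene followed exon length (Spearman's rho = -0.52, against -0.14 to 0.22 in the others). Results that rest on these 4 animals are given with and without them. Remaining rRNA took 0.462 to 1.46% of tpm in *fog-2* and 0.0926 to 1.72% in N2, and no pair of animals held identical values.

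Of 46743 genes, 5972 (12.8%) had a mean of at least 10 tpm at 1 egg/μL in both strains, and these held 94.0% of all tpm in *fog-2* and 95.8% in N2. They comprised 5829 protein-coding genes, 63 pseudogenes, 48 ncRNAs and a few of other classes. *BE10.4* (10.0 and 12.5 tpm) lay just inside that limit and *set-16* (9.996 and 10.1 tpm) just outside it. Mean levels of the 5972 genes on the log2(tpm + 1) scale followed each other between the strains (r = 0.89 across genes, which are not independent replicates).

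The single most abundant transcript was *ant-1.1*, the adenine nucleotide carrier that exchanges ADP for ATP across the inner mitochondrial membrane (chromosome III, 13463163 to 13464652, ce11). In *fog-2* the lowest animal had 16443 tpm, the median animal 32069 and the highest 52634 (mean 30721 ± 9689, SD, n = 14). In N2 the same 3 values were 11172, 30119 and 60480 tpm (mean 31881 ± 12477, n = 13). The *fog-2* range lay inside that of N2 only through the N2 animal that stood apart, since the other 12 had at least 23360 tpm. Next came *rpl-12*, a protein of the large ribosomal subunit, at 15507 ± 5063 tpm in *fog-2* and 18360 ± 10697 in N2.

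Body-wall muscle contributed several of the leading transcripts. *pat-10*, the body-wall troponin C that couples calcium to contraction, ran from 4738 to 9458 tpm in *fog-2* (median 6384) and from 7125 to 31284 in N2 (median 17538). Of the 13 N2 animals 11 lay above every *fog-2* animal, across 2 separately made tables. *mlc-3*, the essential myosin light chain, averaged 7349 ± 1997 (*fog-2*) and 6991 ± 2406 tpm (N2), and the actin *act-4* stood at 6686 ± 1952 and 4785 ± 2695 tpm. *F46H5.3*, with means of 8021 ± 2804 and 9245 ± 5330 tpm, is a predicted arginine kinase, an enzyme class that buffers ATP in invertebrate muscle.

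*C53B7.3* (chromosome X, 6844755 to 6845975) was among the more uneven of the leading transcripts, at 633 to 10374 tpm in *fog-2* (median 4625) and 1379 to 24885 in N2 (median 10543).

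Energy metabolism and protein turnover supplied another set. *aldo-2*, the glycolytic aldolase, had a mean of 6938 ± 2492 tpm in *fog-2* and 6749 ± 2710 in N2. *asp-3*, a lysosomal aspartyl protease, ran from 1045 to 8544 tpm in *fog-2* (median 5228) and from 911 to 13195 in N2 (median 6921). The value of 911 was that of the N2 animal that stood apart, and the other 12 had at least 4309 tpm. The translation elongation factors *eef-2*, *eef-1G*, *eef-1B.1* and *eef-1A.1* each averaged between 4306 and 8237 tpm in either strain. *egl-21*, a carboxypeptidase that trims neuropeptide precursors, and *sbt-1*, the 7B2-type chaperone of the convertase EGL-3, were the neuronal members among the 25 leading transcripts, with means of 2614 ± 1088 and 2997 ± 1106 tpm (*fog-2*) and of 4612 ± 2554 and 4188 ± 2066 tpm (N2). One long noncoding RNA, *tts-1*, was also among them, at 2040 to 12976 tpm in *fog-2* and 1570 to 10122 in N2.

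Together the 25 most abundant genes held 17.2% of all tpm in *fog-2* (11.9 to 24.98% per animal) and 20.3% in N2 (16.46 to 27.1%). *rrn-3.1*, an rRNA gene left by the rRNA filter, was among the 25. The N2 animal that stood apart was the lowest of its strain in 11 of the 25, for example with 482 tpm of *eef-2* where the other 12 had at least 5722, and with 47.7 tpm of *egl-21* where they had at least 1367. It was not low in all of them, since its *rpl-12* was 36410 tpm.

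**Figure D1:**
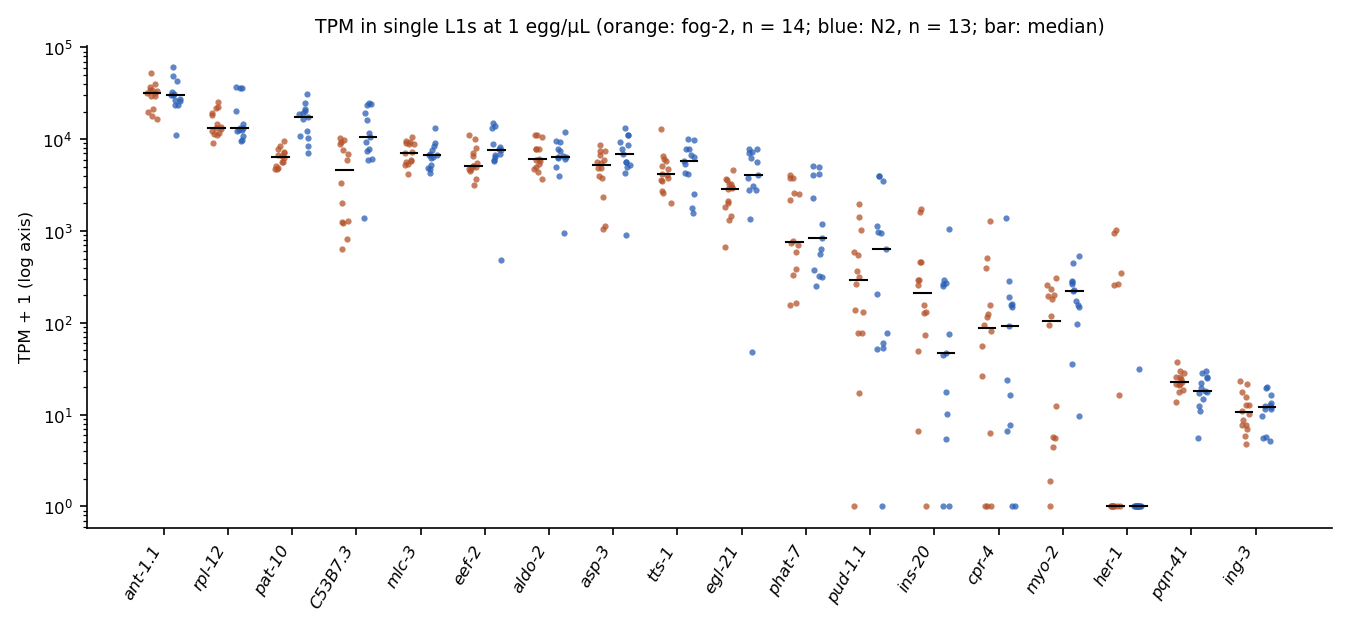
Level of 18 genes in each single L1 at 1 egg/μL, as tpm + 1 on a log axis, with 1 point per animal for *fog-2* (orange, n = 14) and N2 (blue, n = 13) and a bar for the median. Abundant genes such as *ant-1.1* and *mlc-3* form tight columns, while *phat-7*, *pud-1.1*, *cpr-4* and *her-1* are drawn out, several of them down to 0.

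Markers of each major tissue were present. The 22 muscle markers summed to 28889 ± 6972 tpm in *fog-2* and 39767 ± 10123 in N2, and all 22 averaged at least 10 tpm. The intestine list summed to 10345 ± 4079 and 15201 ± 4766 tpm, with 12 of its 14 measured members at that level. The neuron list came to 7035 ± 2361 and 10153 ± 4639 tpm, with 14 of 15. The hypodermis and cuticle list was thinner, with 6 of 18 members at 10 tpm or more in both strains and a sum between 358 and 10288 tpm over the *fog-2* animals. In whole animals, the sum of a list does not show which cells hold its transcripts or how much each cell holds.

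Transcripts of adult gonad and yolk were near 0. The 6 vitellogenin genes, which encode yolk proteins, summed to 0.37 tpm on average in *fog-2* and 0.481 in N2, and the 31 sperm genes (mostly major sperm proteins) to 5.62 and 10.3 tpm. Of 18 germ line and oocyte genes, only *glh-1*, a germ granule helicase, averaged 10 tpm or more in both strains, and the whole list summed to 38.7 ± 21.3 and 41.7 ± 43.5 tpm. No animal at 1 egg/μL exceeded 139 tpm of the germ line list, 44.8 tpm of the sperm list or 5.90 tpm of vitellogenins.

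*her-1*, the secreted factor that directs male development, split the *fog-2* animals. It was listed at 0 in 8 of the 14, and the other 6 had between 15.0 and 1022 tpm. In N2 it was at 0 in 12 of 13 animals and at 30.1 tpm in the last. Among *fog-2* animals it was above 10 tpm in 6 of 14 at 1 egg/μL, 20 of 22 at 5, 12 of 20 at 20 and 15 of 24 at 100. Averaged over the 2 strains, its level at 1 egg/μL did not differ from the other densities at the threshold used (log2 difference = -1.27, SE 0.58, limma, p_adj = 0.27). That average includes N2, where it was also at 0 in 18 of 22 animals at 5 eggs/μL, 12 of 16 at 20 and 20 of 23 at 100. The value is therefore no test of *fog-2* alone. *her-1* was below the limit of 10 tpm in N2 and is therefore not among the 5972 genes.

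Transcripts of the mitochondrial genome lay far apart in the strains' tables. The 12 genes measured summed to 4023 tpm in the lowest *fog-2* animal, 11560 in the median one and 30595 in the highest, against 157, 1088 and 2677 tpm in N2. The ranges did not overlap at this density. At the other densities the strain means lay apart too, with 18086, 20716 and 19833 tpm in *fog-2* and 1931, 1135 and 1920 in N2 at 5, 20 and 100 eggs/μL. *COX1*, a subunit of the terminal oxidase (MtDNA, 7827 to 9428), averaged 3200 ± 1531 tpm in *fog-2* and 327 ± 277 in N2. Strain and table cannot be told apart in this gap.

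Measured levels of most genes varied considerably from animal to animal. With 1 library per animal, differences between animals and noise of the libraries cannot be told apart in this spread. For the 5972 genes the median coefficient of variation (CV, the SD of tpm over its mean) was 0.625 in *fog-2* against 0.749 in N2, and a CV above 1 was found for 628 and 1299 genes. Spread fell with level. Between 10 and 30 tpm (2435 genes) the median CV came to 0.718 (*fog-2*) and 0.858 (N2), and at 1000 tpm or more (188 genes) it was 0.400 and 0.492. Pairs of animals of one strain correlated over genes at 0.698 (median; 0.537 to 0.856) in *fog-2* and at 0.635 (0.441 to 0.822) in N2.

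Zeros followed level as well. In the lowest bin 37.6% of genes were above 0 in every *fog-2* animal and 34.1% in every N2 animal, and in the bin from 300 to 1000 tpm these shares were 98.3 and 96.6%. In all, 2868 genes were above 0 in all 27 animals, and 11 genes were at 0 in most of the animals of both strains. With tpm alone, a transcript missed by the library and one absent from the animal look the same.

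To describe spread apart from level, the SD of log2(tpm + 1) of each gene was set against the running median of the genes nearest in mean level, and the difference is called excess spread. Excess spread of one strain followed that of the other (r = 0.42 and rho = 0.37 across the 5972 genes, as a description). Of the 597 genes with the highest excess spread in either strain, 193 were shared, 32.3% of each list.

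**Figure D2:**
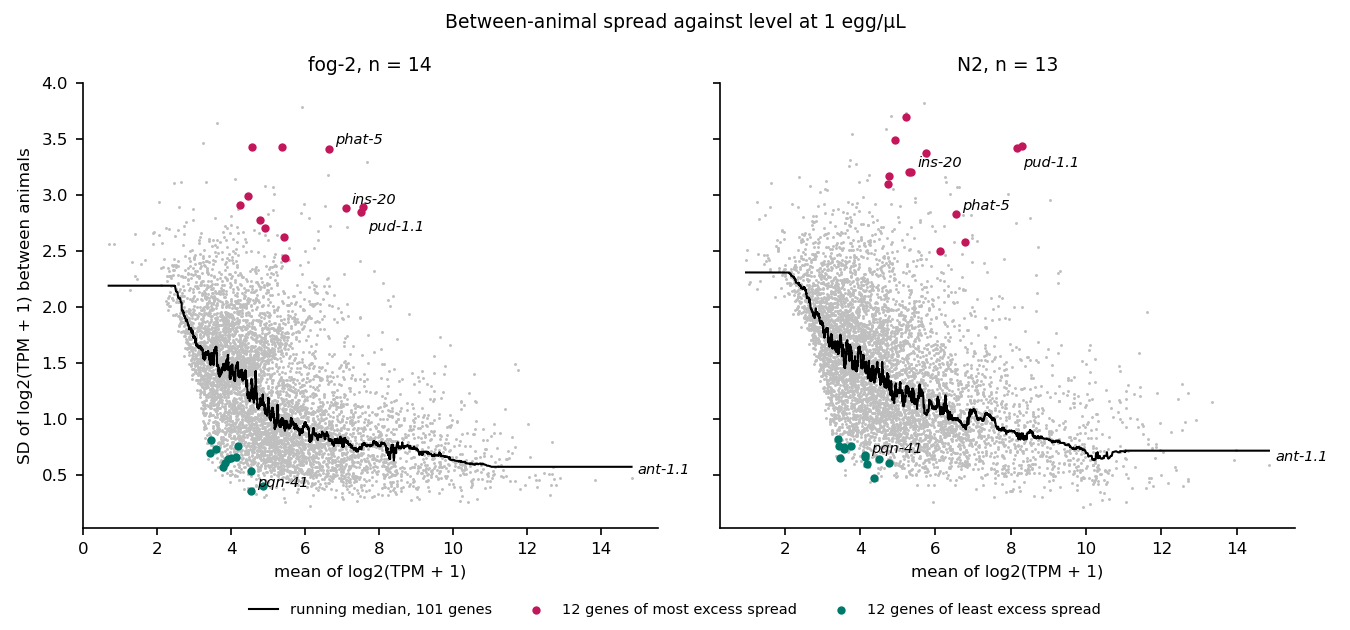
Between-animal SD of log2(tpm + 1) against mean log2(tpm + 1) for 5972 genes (grey) in *fog-2* (left) and N2 (right) at 1 egg/μL, with a running median as a line. The 12 genes of most excess spread lie well above the line in both panels and the 12 of least excess spread lie below it at low levels.

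The 12 genes of most excess spread in both strains were *phat-5*, *pud-1.1*, *pud-1.2*, *ins-20*, *cpr-4*, *nlp-31*, *kola-3*, *M163.8*, *pqn-25*, *F58D5.13*, *scl-14* and *abf-2*. *pud-1.1* (chromosome V, 2330429 to 2330930) ran from 0 to 1981 tpm in *fog-2* (median 288) and from 0 to 4019 in N2 (median 636). *pud-1.2*, its near copy 7863 bases away, had nearly the same values, and reads of the pair may be shared, so that they count as one observation. *ins-20*, an insulin-like peptide, ran from 0 to 1718 tpm in *fog-2* (median 208) and from 0 to 1048 in N2 (median 46.2).

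*phat-5*, of a family expressed in the pharyngeal gland, spanned 0 to 1927 tpm in *fog-2* (median 207) and 2.04 to 1161 in N2 (median 107). *cpr-4*, a secreted cathepsin B-like protease, was at 0 in 3 *fog-2* and 2 N2 animals and reached 1278 and 1385 tpm. *nlp-31* and *abf-2* encode antimicrobial peptides. *nlp-31* ranged from 0 to 431 tpm in *fog-2* and from 0 to 1066 in N2, and *abf-2* from 0 to 250 in both. A large part of this list rested on few animals: when it was remade without the 3 *fog-2* animals of digit 1, 6 of the 12 remained, and without the N2 animal of fewest detected genes 10 remained. *kola-3* was the clearest case, since its excess spread in *fog-2* was 1.66 with those 3 animals and 0.51 without them, while that of *pud-1.1* was 2.12 and 2.48.

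At the other end, 12 genes varied less than genes of their level in both strains. They were *pqn-41*, *ZK632.10*, *adbp-1*, *dnj-19*, *mrp-5*, *ptl-1*, *Y56A3A.7*, *ell-1*, *ptpn-22*, *tres-1*, *ttc-17* and *ing-3*. *pqn-41*, a polyglutamine-containing protein needed for death of the linker cell in males, ran from 12.8 to 36.8 tpm in *fog-2* (median 21.5) and from 4.57 to 29.0 in N2 (median 17.3). *ptl-1*, the worm's tau-like microtubule-binding protein, ran from 6.24 to 31.0 and from 10.9 to 44.9 tpm. No animal was at 0 in either gene. This list was less stable than the other, with 2 of 12 remaining without the *fog-2* animals of digit 1 and 7 without the N2 animal.

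Of the 5972 genes, 252 were at 0 in 20 to 80% of the animals of each strain. *C01G10.5* was at 0 in 6 of 14 *fog-2* and 9 of 13 N2 animals and reached 1120 and 608 tpm in the others. *cnc-4*, a caenacin antimicrobial peptide gene, was at 0 in 3 *fog-2* and 4 N2 animals, with highest values of 31.3 and 503 tpm. *hsp-12.6*, a small heat shock protein, was at 0 in 3 and 4 animals and reached 173 and 285 tpm.

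Spread at 1 egg/μL was then compared with that at 5, 20 and 100 eggs/μL, by fitting absolute deviations from the group median with limma. Of 5713 genes tested, 0 had more and 0 had less spread at p_adj under 0.05 (0% and 0% called), and at an unadjusted p under 0.05 the counts were 223 and 67. The median difference over all genes was 0.01 on the log2 scale, and its sign depended on the setting. It was -0.10 with the number of detected genes as a covariate and -0.02 under quantile normalization. Without the *fog-2* animals of digit 1 it was -0.07, and without the N2 animal of fewest detected genes -0.03. Under the other alternatives it lay between 0.001 and 0.02. The counts of genes called depended on the fit, since centring on the group mean called 22 genes with more spread and 1 with less, and *fog-2* alone called 6 with more.

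Which genes went up and down together between animals was asked next, in each strain on its own. Among 5555 genes above 0 in at least 10 animals of each strain there were 15426235 pairs. The median correlation of log2(tpm + 1) was 0.05 for *fog-2* animals and 0.08 for N2. A pair was said to co-vary at r of at least 0.8, which 0.862% of pairs reached in *fog-2* and 0.941% in N2. Both conditions together held for 3674 pairs (0.0238%), so 2.76% of the *fog-2* pairs and 2.53% of the N2 pairs were shared. All genes of an animal share its library, its depth and the closure of tpm to a fixed sum, so these r values are descriptions and carry no p.

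Gene families and neighbours made up more of the shared pairs than of pairs at large. Pairs with a family name in common were 0.116% of all pairs and 9.20% of those co-varying. Pairs within 10000 bases of each other were 0.0366% of all and 2.64% of those co-varying, whereas pairs merely on the same chromosome were 16.7% and 20.5%. Many of the strongest joined near-identical neighbours, *clec-14* with *clec-16* (r = 0.998 in both), *pud-1.1* with *pud-1.2* (0.999 and 0.997) and *col-3* with *col-117* (0.999 and 0.996), and for these the assignment of reads between copies may set the correlation. Linking every co-varying pair gave 191 connected groups of 1701 genes, of which 44 had 3 or more members.

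**Figure D3:**
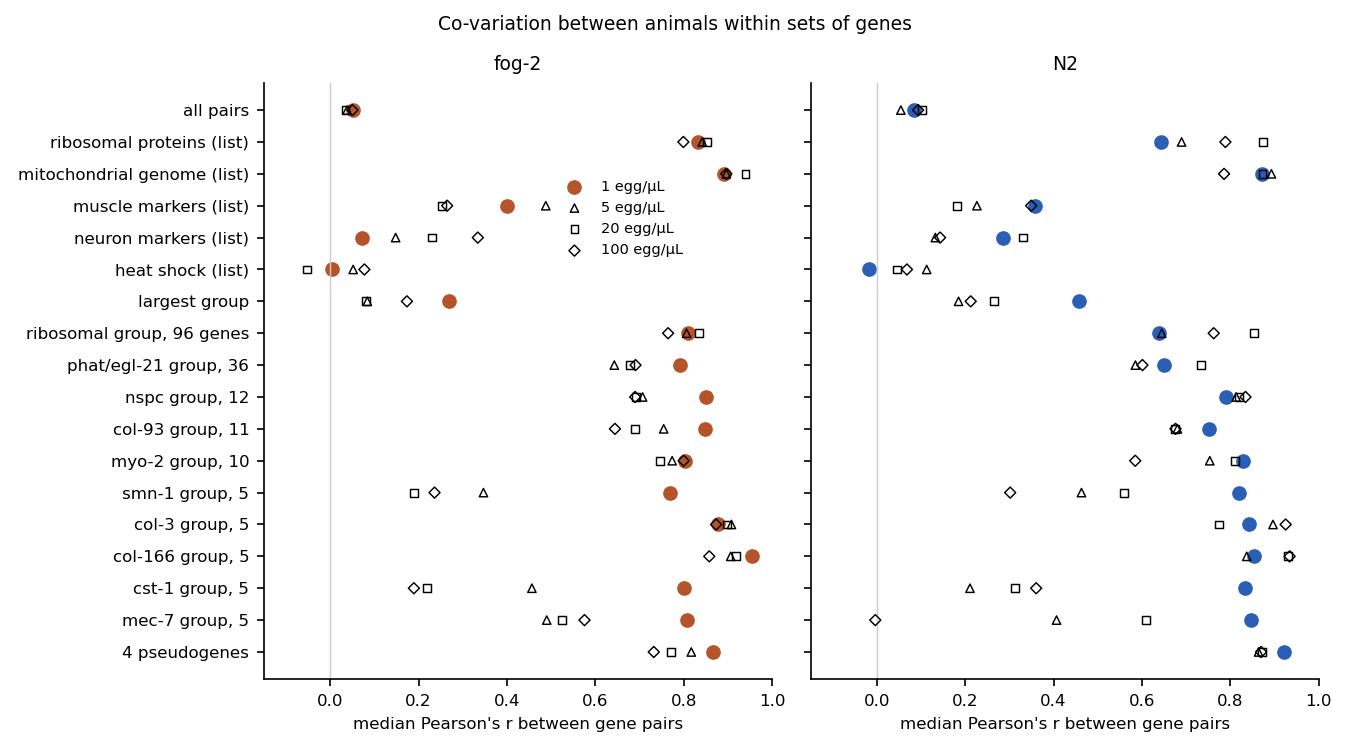
Median Pearson's r over the gene pairs of each list or co-varying group in *fog-2* (left) and N2 (right), with filled circles for 1 egg/μL, by which the groups were chosen, and open symbols for 5, 20 and 100 eggs/μL. Open symbols of the ribosomal, *nspc* and collagen groups stay near the filled ones, those of the *smn-1*, *cst-1* and *mec-7* groups lie to the left, and all pairs centre near 0.

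The clearest group was the ribosome. It had 96 genes, 71 of them from a list of 78 cytosolic ribosomal proteins, with a median r of 0.81 in *fog-2* and 0.64 in N2. *rps-25*, *rps-14*, *rps-2* and *rpl-8* had the most partners (37, 36, 33 and 31). Members outside the list included *rack-1*, a scaffold on the small subunit, *icd-2* of the nascent polypeptide-associated complex, *tct-1* (the translationally controlled tumour protein) and *ubq-2* and *fau-1*, ubiquitin-type fusions to ribosomal proteins. In summed tpm the group took 80667 to 239227 in *fog-2* animals and 94573 to 261637 in N2. After removing each animal's number of detected genes the median r was 0.85 and 0.67, and at the other densities it was 0.64 to 0.85.

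Transcripts of the mitochondrial genome co-varied as well. Of the 28 pairs among its 8 genes of sufficient level, 15 (53.6%) reached 0.8 in both strains, with a median r of 0.89 (*fog-2*) and 0.87 (N2), and at the other densities the median was 0.79 to 0.94.

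The second group, of 36 genes, held pharyngeal gland and neuropeptide-processing genes side by side (median r 0.79 in *fog-2* and 0.65 in N2). Its best-connected genes were *phat-7*, *egl-21*, *sbt-1*, *snt-4* (a synaptotagmin) and *tnt-3* (a troponin T), with *egl-3*, *pghm-1* and *pgal-1*, which complete the cutting and amidation of neuropeptides, and with the peptides *flp-11*, *flp-12*, *flp-19*, *flp-27* and *pdf-1*. *daf-7*, the TGF-β ligand that sensory neurons release and that promotes reproductive growth, belonged to it too. *phat-7* ran from 156 to 4049 tpm in *fog-2* (median 762) and from 250 to 5094 in N2 (median 842), *daf-7* from 10.8 to 357 and from 5.85 to 745, and *egl-3* from 68.1 to 476 and from 54.4 to 636. The group as a whole spanned 7928 to 46687 tpm over the *fog-2* animals. At other densities its median r was 0.59 to 0.73. The 14 neuron markers of sufficient level did not co-vary as a list, with a median r of 0.07 in *fog-2* and 0.29 in N2. That list includes *egl-3*, *egl-21* and *sbt-1* of this group, so it does not set general neuronal genes against the group. *snb-1*, the synaptobrevin, and *sbt-1* correlated at 0.07 and -0.29.

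The third group was pharyngeal muscle. *myo-1* and *myo-2*, the myosin heavy chains of the pharynx, were joined by *myo-5*, *myo-6*, *clik-2*, *tnt-4*, *marg-1*, *pugs-5*, *C02B8.12* and *ZC455.1*, with a median r of 0.80 in *fog-2* and 0.83 in N2. *myo-2* ran from 0 to 310 tpm in *fog-2* (median 105) and from 8.69 to 527 in N2 (median 220), and *myo-1* from 2.18 to 256 and from 9.09 to 583. The *fog-2* animals left a gap, with *myo-2* at 11.6 tpm or less in 6 of them and at 92.9 or more in the other 8, while of the N2 animals 1 was under 11.6 and 1 between (34.7). Summed over the 10 genes, the lowest *fog-2* animal had 79.96 tpm and the highest 2326. Body-wall muscle was a separate matter. *unc-54*, the major body-wall myosin, and *unc-15*, its paramyosin, tracked each other (0.88 and 0.91) outside this group, and *myo-3*, the minor body-wall myosin, stayed between 9.87 and 48.1 tpm in *fog-2*.

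**Figure D4:**
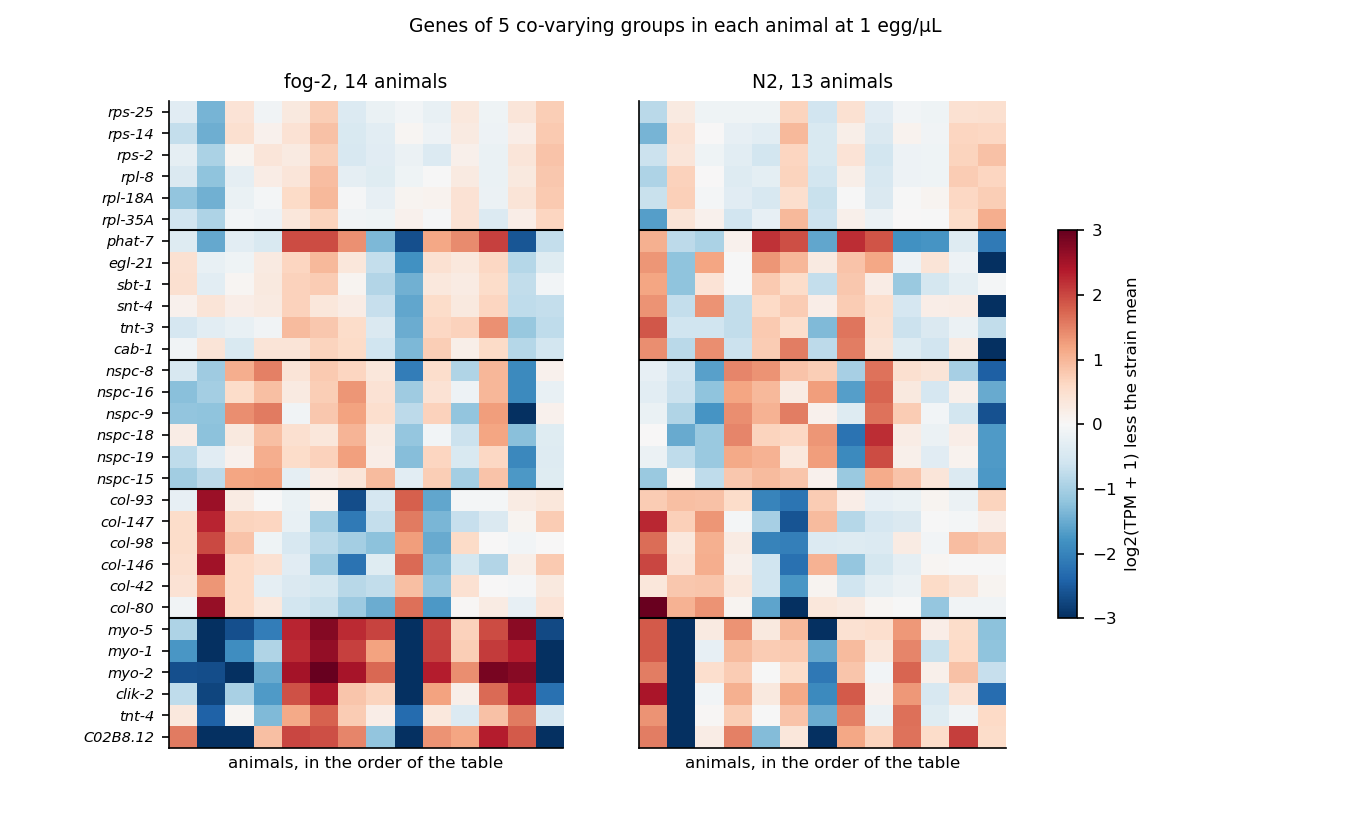
Log2(tpm + 1) less the strain mean (colour) of the 6 best-connected genes of 5 co-varying groups, 1 column per animal at 1 egg/μL, for 14 *fog-2* (left) and 13 N2 (right) animals. Columns keep the same order of animals for every group. Genes of a group share their columns of red and blue, which differ from group to group. Several *fog-2* animals are dark blue in the *myo-2* group.

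Some of the smaller groups were mostly of 1 family, while many others joined genes of unlike names. Of the *nspc* genes, nematode-specific peptides on the X chromosome, 12 formed a group of their own with a median r of 0.85 and 0.79. *nspc-15* (X, 12360744 to 12361159) ran from 294 to 2242 tpm in *fog-2* (median 960) and from 893 to 6294 in N2 (median 3198), and the members are similar enough to share reads. Among the 41 *col* genes of sufficient level, 32 of 820 pairs (3.90%) co-varied in both strains, and the median r was 0.33 and 0.25. Some of these cuticle collagens fell into 3 groups, one of *col-93*, *col-98*, *col-147*, *col-146*, *col-42* and 5 others with *gst-4*, a glutathione transferase (0.85 and 0.75), one of *col-3*, *col-117*, *col-125*, *col-107* and *ram-2* (0.88 and 0.84), and one of *col-166* to *col-170*, adjacent in name (0.96 and 0.85). *col-98* ran from 554 to 6257 tpm in *fog-2* and from 390 to 5149 in N2. The *nspc* group and the 3 collagen groups held at every other density with median r of 0.64 or more.

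The largest group joined 1102 genes around *T01D3.6*, *C30E1.9* and *unc-89* by chains of pairs, with a median r of 0.27 in *fog-2* and 0.46 in N2. Groups around *smn-1* and *cst-1*, of 5 genes each, had median r of 0.77 to 0.83 here and at most 0.56 at other densities. In the group of *T01D3.6* the *fog-2* median fell to 0.09 once the number of detected genes was removed, in N2 to 0.20 without the animal of fewest detected genes, and at other densities to 0.08 to 0.26. A small group around the touch receptor tubulins *mec-7* and *mec-12*, with *pck-2*, *fah-1* and *rhr-1* (0.81 and 0.85), fell to 0.29 in N2 without that animal. Of the 3674 pairs as a whole, 17.3 to 28.9% again reached 0.8 in each other group of animals, against 0.0752 to 0.593% of all pairs.

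For 25 pairs of genes, most with a known tie and a few without one, permutation tests were run in each strain (100000 resamples, two-sided, Benjamini-Hochberg over 50 tests). They were what remained of 32 pairs after 7 fell below the level minimum, a mean of 1 tpm for both genes in both strains. The pairs were chosen with earlier results of these data known. Of the 50 tests 18 passed, all with positive r. The 6 pairs that passed in both strains were *nspe-1* with *nspe-2*, *pud-1.1* with *pud-2.1*, *gpd-2* with *gpd-3*, *unc-54* with *unc-15*, *COX1* with *CYTB* and *egl-3* with *egl-21*. For *egl-3* and *egl-21*, 2 enzymes that act one after the other on neuropeptide precursors, r was 0.92 and rho 0.96 in *fog-2* (permutation p = 2e-05 and 1e-05, the latter the smallest the resamples give, adjusted 0.0002 and 0.000167). In N2 r was 0.69 and rho 0.90 (permutation p = 8e-05 and 4e-05, adjusted 0.0004 and 0.00033). Without the 2 animals farthest from the median *egl-3* level r was 0.98 and 0.95, and in N2 r was 0.56, no longer past the threshold, once the number of detected genes was removed.

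For *unc-54* and *unc-15* r was 0.88 and rho 0.91 in *fog-2* (permutation p = 3e-05 and 2e-05, adjusted 0.000214 and 0.00025), and in N2 r was 0.91 and rho 0.85 (permutation p = 6e-05 and 0.00053, adjusted 0.000333 and 0.00221). Without the 2 farthest animals r was 0.85 and 0.72, the latter no longer past the threshold. *COX1* and *CYTB*, which sit on the same mitochondrial genome, had r of 0.84 and 0.95 (permutation p = 0.00027 and 1e-05, adjusted 0.00112 and 0.000125) and rho of 0.78 and 0.99 (permutation p = 0.00148 and 1e-05, adjusted 0.00569 and 0.000167), and 0.74 and 0.95 without the 2 farthest animals. Pairs that passed in neither strain included *lips-15* with *nspe-1*, neighbours on chromosome II (r = -0.54 and 0.03, rho = -0.55 and 0.01, permutation p = 0.048 and 0.93 for r and 0.046 and 0.98 for rho, adjusted 0.11 and 0.95 for r and 0.11 and 0.999 for rho). *hsp-6* and *hsp-60*, mitochondrial chaperones, passed in *fog-2* (r = 0.81, permutation p = 0.0046, adjusted 0.0147), but rho was 0.52 (permutation p = 0.06, adjusted 0.13) and r was 0.11 without the 3 animals of digit 1, so that the relation rested on them. The summed level of none of 16 gene lists followed the number of detected genes past the adjustment (0 of 32 permutation tests). At an unadjusted permutation p under 0.05 there were 5 by r and 3 by rho, of which the hypodermis and cuticle list (r = -0.58, rho = -0.62, permutation p = 0.03 and 0.019, adjusted p of r = 0.24) and the starvation list (r = -0.59, rho = -0.56, permutation p = 0.027 and 0.041, adjusted p of r = 0.24), both in *fog-2*, were under it by both measures.

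Levels at 1 egg/μL were compared with the mean of the other 3 densities by limma over the animals of every density. Of 18895 genes tested, 190 (1.01%) were higher and 257 (1.36%) lower at p_adj under 0.05, on a scale where the median of all genes was -0.17 (log2). Quantile normalization moved that median to -0.05 and gave 263 higher and 155 lower, so the balance of the 2 directions depends on scaling. The largest differences upward were *nspe-1* (log2 difference 7.14) and *nspe-2* (6.83), nematode-specific peptides, and *lips-15* (5.47), a predicted lipase. The largest downward were *F07C4.6* (-2.69, not past the threshold in either strain alone), *F23F12.12* (-2.45) and *cyp-13A10* (-2.38).

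The ribosomal protein transcripts were high as a body in the least crowded larvae. Of 77 tested, 63 were higher and 0 lower, against 1.01% of all genes, and 76 had a positive difference, with a median of 0.60 where the median of all genes was -0.17. They co-vary, so that 63 genes are far from 63 independent observations. In *fog-2* their share of all tpm was 11.5 ± 3.71% at 1 egg/μL (n = 14) and 7.34 ± 2.89, 6.91 ± 2.70 and 8.09 ± 2.19% at 5, 20 and 100 (n = 22, 20 and 24). In N2 it was 11.7 ± 4.12% at 1 egg/μL (n = 13) and 9.55 ± 3.41, 9.33 ± 5.83 and 7.06 ± 3.57% at the others (n = 22, 16 and 23). Ranges overlapped throughout, with 5.92 to 18.8% in *fog-2* and 7.25 to 19.1% in N2 at 1 egg/μL.

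**Figure D5:**
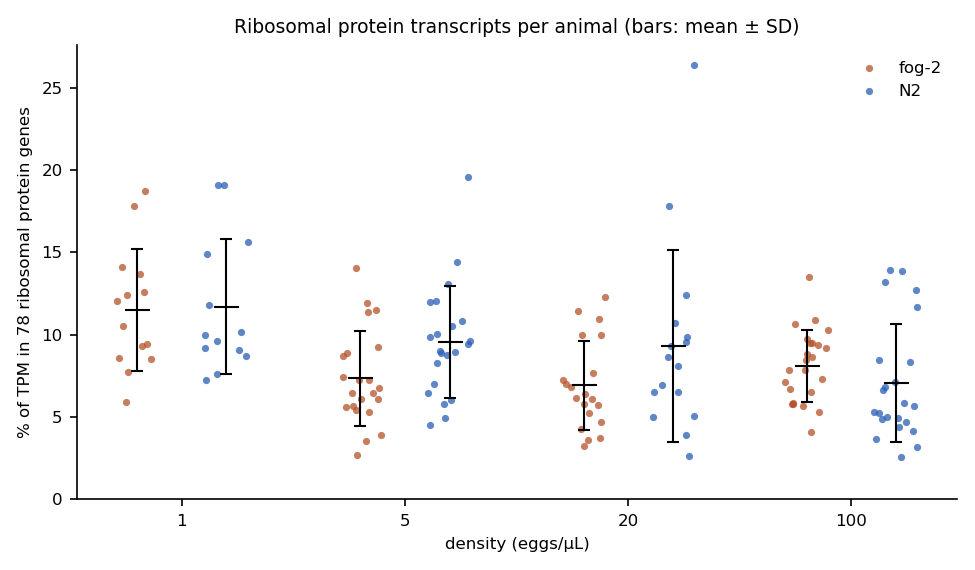
Share of tpm in 78 ribosomal protein genes in each animal of the series (%), by density and strain, with mean ± SD as bars. The means at 1 egg/μL are 11.5% in *fog-2* and 11.7% in N2, and animals of every other density reach into the same range.

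*rpl-12* differed by 0.59 on the log2 scale (SE 0.13, limma, p_adj = 0.0018), *rps-16* by 0.68 (SE 0.14, p_adj = 0.00049) and *rplp-1*, an acidic stalk protein, by 0.74 (SE 0.13, p_adj = 5.18e-05). Under quantile normalization 61 of the 77 were higher, with the number of detected genes as a covariate 59, without the N2 animal that stood apart 55, and without the *fog-2* animals of digit 1 64. In *fog-2* alone 45 passed. In N2 alone 0 passed, with 76 of 77 positive and a median of 0.54. Ribosomal protein genes are short (median exon length 513 bases, against 1379 for the 5555 genes). For deviations from the strain median over all densities, the mean rho of an animal's deviations with exon length was -0.03 at 1 egg/μL and between -0.03 and 0.05 at the other densities in *fog-2*, and -0.01 and between -0.04 and 0.04 in N2. For animals at 1 egg/μL rho was also taken with deviations from the strain median at that density alone. Across those of N2, animals with the more negative rho had the higher summed ribosomal level (r = -0.72, rho = -0.88, permutation p = 0.002 and 0.00016, adjusted over 2 strains 0.004 and 0.00032), with r = -0.65 without the animal that stood apart. Without the 2 N2 animals farthest from the median r was -0.56 (permutation p = 0.075), so that the relation rests in part on them. In *fog-2* r was -0.22 and rho -0.23 (permutation p = 0.45 and 0.44, adjusted 0.45 and 0.44), and r was -0.81 without the 3 animals of digit 1. The ribosomal genes are themselves among the genes of this measure, and the part of transcript length in their co-variation and in their level was not tested.

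Of 21 tested low-density genes named in the study, 18 were higher and 0 lower, with a median of 2.69. That list comes from these same animals, so its count is no separate result. Of the 6 elongation factor genes *eef-1A.1*, *eef-1B.1* and *eef-1B.2* were higher, against 1.01% of all genes, with 0.55 (SE 0.12, limma, p_adj = 0.0021) for *eef-1A.1*. Of the 25 most abundant genes 9 were higher and 0 lower, against 1.01 and 1.36% of all genes, and 7 of the 9 belong to the ribosome or its factors. The others were *mlc-3* (0.33, SE 0.09, p_adj = 0.035) and *ndk-1*, a nucleoside diphosphate kinase (0.66, SE 0.12, p_adj = 4.68e-05). *ant-1.1* differed by 0.15 (SE 0.11, p_adj = 0.47). Of the 12 genes of most excess spread, *ins-20* (3.77, SE 0.57, p_adj = 8.08e-07, not past the threshold in N2 alone), *pud-1.1* (3.70, SE 0.61, p_adj = 8.11e-06) and its copy *pud-1.2* were higher.

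Lower at 1 egg/μL, against 1.36% of all genes, were 6 of 15 tested hypodermis and cuticle genes (list median -0.83). They were *dpy-17*, *col-12*, *col-93*, *col-101*, *col-159* and *col-160*. Of that list 2 passed in *fog-2* alone and 0 in N2 alone. Also lower were 3 of 21 tested heat shock and unfolded protein genes (*hsp-12.1*, *hsp-12.3* and *hsp-12.6*, small heat shock genes). So were *CYTB*, *ND4* and *ND5* of the 12 mitochondrial genome genes. Of 23 tested genes of the starvation list 4 were lower, *hsp-12.6* among them, and 1 was higher. *col-93* differed by -0.84 (SE 0.25, limma, p_adj = 0.043) and *hsp-12.6* by -2.103 (SE 0.51, p_adj = 0.0068, not past the threshold in either strain alone). *CYTB*, the cytochrome b of complex III, differed by -0.84 (SE 0.24, p_adj = 0.03). All 12 mitochondrial genes had a negative difference under every alternative run that tested them, with a median of -0.60, and 0 passed in either strain alone. Of the 14 tested intestine and 15 neuron markers 0 passed in either direction.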

How the data were processed

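Single L1s were sequenced with Smart-Seq2. Reads of rRNA and PCR duplicates were discarded by the authors, and the deposited TPM values were estimated with RSEM. The submitters' processing notes name Bowtie, RSEM and ce11, with versions not given in the sources used here. The table of each strain was read as deposited. Its 47639 transcript rows were summed to 46743 genes, and positions came from the annotation of the same assembly. Of 154 columns, 146 matched an animal's title and 8 *fog-2* columns matched only their density. TPM does not keep depth, and the study gives an average over all animals, so the depth of each animal was not analysed here.

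Values were analysed as log2(TPM + 1), on which a fold change of low genes is understated. Levels and spread were fitted with limma 3.58.1 in R 4.3.3, in 8 strain by density groups, on genes of TPM of at least 1 in at least 13 animals (levels) or mean TPM of at least 10 (spread), with Benjamini-Hochberg adjustment and a threshold of 0.05. Correlations were computed in Python 3.11.15 with permutation tests of 100000 resamples. The scripts were tested on simulated data.

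Named genes were the 25 most abundant, the 12 of most and the 12 of least excess spread, the 10 most abundant of those at 0 in 20 to 80% of animals, the 10 strongest pairs, the best-connected genes of the leading groups, the leading genes of each list, the 10 largest differences in each direction and the genes of the fixed pairs. *her-1* belongs to a list of sex genes. Members of the smaller groups were named after the groups had been seen. The members and lists were chosen with earlier results of these data known. Alternatives covered pseudocounts, filters, scaling, covariates, correlation thresholds and animals left out.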

Additional observations from a re-analysis of the deposited data

How the results depend on the processing

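No paired analysis was possible because the numbers in the animals' names pair no animal of one density with one of another. The count of genes higher at 1 egg/μL fell from 190 to 15 in N2 alone. The count of lower genes, 257, was 155 under quantile normalization, 132 in *fog-2* alone, 8 in N2 alone and 489 with array weights. For spread, centring on the group mean in place of the median called 22 genes with more and 1 with less, and *fog-2* alone called 6 with more, against 0. Against 3674 co-varying pairs, Spearman's rho gave 1756 (815 of them shared), quantile normalization 1390 (1025 shared), log2(TPM + 10) 2226 (1895 shared), r of at least 0.7 28209 and r of at least 0.9 208. Leaving out 1 animal at a time gave 2679 to 4806 pairs, the lowest without the N2 animal of fewest detected genes (1674 shared). Without the 3 *fog-2* animals of digit 1 there were 5289, with 1662 shared. The cause of these shifts was not tested, except that fewer animals enter the fits of one strain and the r limits act by construction. Of the other alternatives of these counts, 85 stayed within 1.5 times, and of those of single genes and pairs 582 kept their side of the threshold, 31 lost it and 14 gained it. None that had passed changed sign under the alternatives run, but pairs that had not passed did, such as *lev-11* with *mlc-3* in N2 (r = -0.42, and 0.33 without the N2 animal of fewest detected genes). The 2 settings that leave out the low animals were chosen after seeing the data. A value of 0 cannot separate a missed transcript from an absent one.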
